A study of Mus musculus with 12 samples.

Results

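Transcripts of 10 genes whose proteins hepatocytes secrete into plasma were followed in AML12 cells, an immortalised mouse hepatocyte line. The genes were matched by symbol: Alb, Ttr, Trf, Ahsg, Apob, Apoe, Apoa1, Apoc1, Apom and Apoh, and all 10 were among the 19037 genes of the deposited table. The series design names 4 groups with 3 libraries each. Control cells carry a GFP code in their sample descriptions that the labels do not explain. FK228 cells carry the same GFP code and received FK228, a compound that inhibits class I histone deacetylases (HDACs). YF cells overexpressed YF mutants of class I HDACs and received no FK228. FK228+YF cells overexpressed the YF mutants and received FK228. The sources used here do not give the dose of FK228, the time of treatment, the promoter of the constructs or the HDACs that were mutated. Whether the 3 libraries of a group stem from separate cultures is not stated, and the p-values below therefore reflect only how far these libraries spread, possibly for technical reasons.

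The liver is the main source of plasma proteins. Albumin holds the osmotic pressure of blood and binds fatty acids, transthyretin carries thyroid hormone and the retinol-binding protein, and transferrin carries iron. Apolipoproteins are the protein part of lipoprotein particles: apolipoprotein B is the structural backbone of very-low-density lipoprotein, apolipoprotein A-I that of high-density lipoprotein, and apolipoprotein E is a ligand of the receptors that clear the remnants. In hepatocytes many of these genes are driven by a shared set of transcription factors, among them HNF4A, C/EBP and FOXA proteins.

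The libraries held 23664446 to 26122998 counts each. Counts scaled by library total and TMM factors are given as CPM. Levels of the 10 genes are compared with each other only in TPM, which also corrects for transcript length. Genes to be named from each list were ranked by mean CPM, which does not. A gene entered the test with at least 0.393 CPM in 3 libraries and enough counts over all libraries, which held for 13346 genes and for 5 of the 10: Ttr, Trf, Apob, Apoe and Apoa1. Of the hepatocyte markers in the table, 3 of 11 reached 1 TPM in control cells, namely Ass1, Krt8 and Krt18. Arg1, the arginase of the urea cycle, and Pck1, the key enzyme of gluconeogenesis, were at 0 counts there. The bile-duct keratin genes Krt7 and Krt19 and Spp1 stood at 78 TPM, 667 TPM and 3892 TPM. Summed over 6 bile-duct markers, the level ran from 4473 to 4731 TPM in control, 4375 to 5486 TPM in FK228, 5236 to 5649 TPM in YF and 3955 to 4544 TPM in FK228+YF libraries. Spp1 made up most of each sum, so it says little about the other markers. Krt19 averaged 667, 172, 316 and 108 TPM in the same order of groups. Over 10 macrophage markers the sum ran from 108 to 144 TPM, 38.6 to 45.3 TPM, 89.1 to 113 TPM and 61.9 to 70.7 TPM in the same order of groups, nearly all of it from Cd14 and Cd68, and Adgre1 was at 0 counts in control cells. Over 7 stellate cell markers it ran from 2.72 to 3.74 TPM in control and from 11.5 to 13.4 TPM in FK228+YF libraries, with Des the only one to reach 1 TPM, and 8 endothelial markers summed to at most 0.54 TPM in any library. The part of these markers of other cell types in the results below was not tested.

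Per length, the 10 genes spanned a very wide range in control cells. Trf led with 278 ± 26.4 TPM (mean ± SD, n = 3, as in all values that follow), and ranked 452 of 19037 genes. Apob followed with 36.0 ± 3.17 TPM at rank 3019, and Ttr with 16.2 ± 5.65 TPM at rank 5290. Apoe averaged 2.67 TPM, Apoa1 2.05 TPM, Apoc1 1.09 TPM and Apom 0.51 TPM. Apoh averaged 0.14 TPM, Ahsg 0.0333 TPM and Alb 0.02 TPM. Trf, Apob, Ttr and the rest were separated from one another over the control libraries, whereas the neighbours Apoe and Apoa1, Apoa1 and Apoc1, Apoc1 and Apom, Apoh and Ahsg, and Ahsg and Alb overlapped. Alb, the gene of the most abundant plasma protein, had the lowest mean TPM of the 10 and ranked 14535 of 19037. It had 1 count in each control library and Ahsg had 0, 2 and 0, so the order of these 2 genes is not settled.

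**Figure D1:**
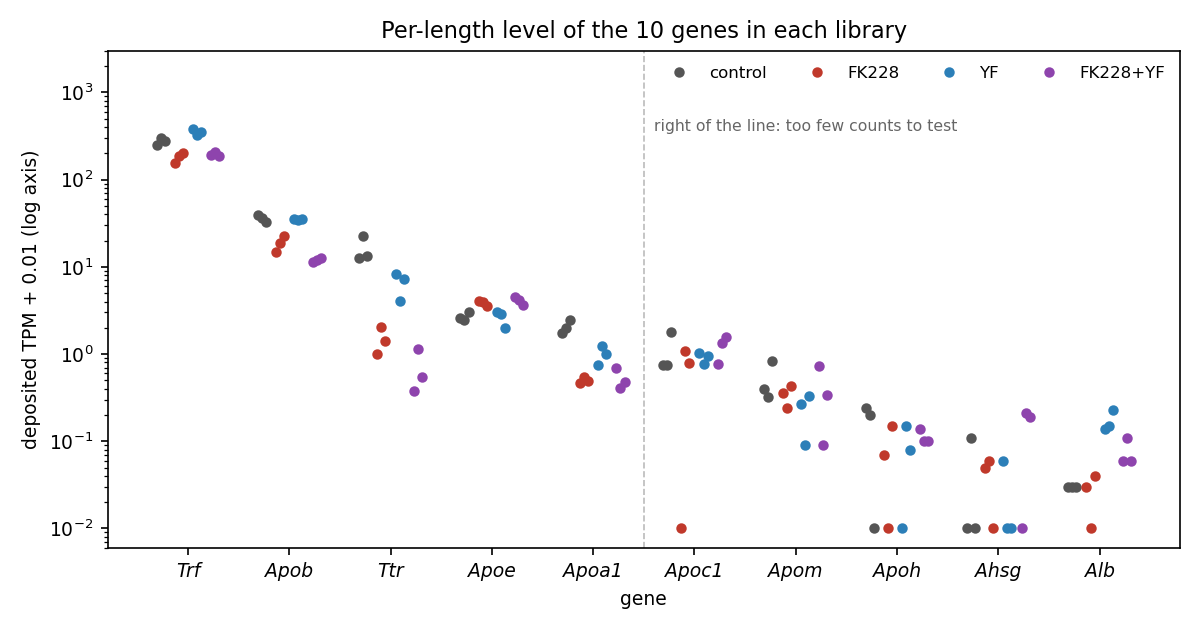
Deposited TPM of the 10 genes, with 0.01 added, on a log axis, 1 point per library and 4 groups by colour. Trf and Apob lie highest in every group, and the 5 genes right of the dashed line, Apoc1 to Alb, were not tested because their counts were too low.

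The summed TPM of the 10 genes was 337 ± 30.4 in control, 207 ± 27.0 in FK228, 403 ± 30.4 in YF and 213 ± 11.8 in FK228+YF cells. Trf made up most of each sum. Apob contributed 10.8% of it in control cells and 5.6% in FK228+YF cells. Without Trf and Apob, the other 8 genes summed to 22.7 TPM in control, 6.87 TPM in FK228, 11.5 TPM in YF and 7.19 TPM in FK228+YF cells.

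Against control, FK228 lowered 4 of the 5 tested genes (Ttr, Trf, Apob and Apoa1) and raised 1 (Apoe), in a comparison in which 68.8% of all tested genes were called (33.2% higher and 35.5% lower). With YF alone 1 was higher (Trf) and 2 were lower (Ttr and Apoa1), against 32.6% of all tested genes called, 18% higher and 14.6% lower. With FK228+YF 4 were lower (Ttr, Trf, Apob and Apoa1) and 1 was higher (Apoe), against 77.4% of all genes, 38.8% higher and 38.6% lower. These 3 comparisons share the control libraries. The calls are at an adjusted p of 0.05 in edgeR's quasi-likelihood test, with p-values adjusted over all 13346 genes. With shares that high over all genes, the number of calls among 5 genes says little about them, and the sizes below carry the description. Apoa1 reached 0.393 CPM in 3 control, 3 YF, 1 FK228+YF and 0 FK228 libraries, so it could be tested only because of groups in which it was high, and its calls with FK228 and FK228+YF are no support for a direction of the set. The median log2 change over all tested genes was -0.0153 with FK228, 0.00881 with YF and 0.00502 with FK228+YF.

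Ttr, on chromosome 18 at 20664209 to 20674326 (GRCm38.p6, RefSeq, as for all positions here), encodes transthyretin and showed the largest fall. Its counts were 179, 326 and 195 in the control libraries, 15, 31 and 19 with FK228, 106, 58 and 97 with YF, and 5, 16 and 8 with FK228+YF. Every treated library lay below every control library, every FK228 library lay below every YF library, and FK228 and FK228+YF libraries overlapped. In CPM the means were 9.02 ± 3.08, 0.884 ± 0.332, 3.36 ± 1.03 and 0.397 ± 0.225 in that order of groups. FK228 cells thus held 9.79% of the control level, YF cells 37.3% and FK228+YF cells 4.4%. On the log2 scale the differences from control were -3.34 ± 0.33 (SE) with FK228 (adjusted p = 1.945e-07), -1.42 ± 0.27 with YF (adjusted p = 0.000787) and -4.48 ± 0.38 with FK228+YF (adjusted p = 1.751e-08). Ttr reached 0.393 CPM in 3 control, 3 FK228, 3 YF and 1 FK228+YF libraries, so its level with FK228+YF lay near the cutoff of the filter. The lncRNA gene Gm16090 overlaps the start of Ttr, up to 20665260. The counting is not stated to use strand, so reads of the 2 genes cannot be told apart within that stretch. In bulk RNA, fewer cells that express a gene and less RNA per cell cannot be told apart, here and in all results that follow.

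Trf, on chromosome 9 at 103208876 to 103230286, encodes transferrin and moved in opposite directions with the 2 treatments. The control libraries held 11875, 14419 and 13921 counts, the FK228 libraries 8252, 9215 and 8952, the YF libraries 16721, 15657 and 16392, and the FK228+YF libraries 9031, 9680 and 8405. YF libraries lay above all others, control libraries came next, and the libraries with FK228 lay lowest, with or without YF. Mean CPM was 519 ± 51.6 in control, 359.8 ± 20.1 in FK228, 627 ± 32 in YF and 373 ± 19.3 in FK228+YF cells. Trf fell by 0.53 ± 0.07 on the log2 scale with FK228 (adjusted p = 1.417e-06) and rose by 0.27 ± 0.07 with YF (adjusted p = 0.0055). With FK228+YF it was at -0.47 ± 0.07 against control. The log2 difference between FK228+YF and FK228 was 0.05, with an adjusted p of 0.556 in edgeR's quasi-likelihood test.

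The genes of the 2 other abundant plasma carriers of the set, albumin and fetuin-A, were hardly detected. Alb, on chromosome 5 at 90460870 to 90476602, had 1 count in each control library, 1, 0 and 1 with FK228, 5, 6 and 9 with YF, and 2, 4 and 2 with FK228+YF. The YF libraries held the most counts and did not overlap those of any other group. The ratio of YF to control, 20 counts against 3, was 6.64 with an exact 95% interval of 1.97 to 34.9 that covers counting error only. FK228+YF against control gave 2.85 with an interval of 0.683 to 16.7, and FK228 against control 0.704 with an interval of 0.0588 to 6.14. In a fit with no filter on low counts, Alb was 2.57 ± 0.95 higher on the log2 scale in YF than in control cells (adjusted p = 0.0401, edgeR's quasi-likelihood test). In liver Alb is among the most abundant transcripts. Ahsg, on chromosome 16 at 22892015 to 22899451, encodes fetuin-A, an inhibitor of calcification. It had 2 counts in control, 2 in FK228, 1 in YF and 9 in FK228+YF cells, and the interval of the ratio of FK228+YF to control, 0.994 to 45.7 around 4.8, includes 1. The lncRNA gene Gm30505 overlaps the start of Ahsg, up to 22894386, and with strand not stated, reads of these genes cannot be told apart within that stretch.

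The promoters of Alb, Apob and Apoa1 are shown because they stand for a gene barely read in these cells, the most read apolipoprotein gene of the 10 and the apolipoprotein gene with lower counts in every treated library than in any control library. Each window belongs to a RefSeq transcript start and runs from 250 bases before it to 50 bases after it, 5′ to 3′ on the strand of the gene. Capitals mark matches, on either strand, to the C/EBP core TTGCNNAA, the TATA box TATAAA and the CCAAT box CCAAT. The HNF4 element CAAAGTCCA, its shorter form AAAGTCCA, the nuclear receptor motif AGGTCA and the GC box GGGCGG were also searched and have no match in the 3 windows. The windows are chr5:90460620-90460919 for Alb, chr12:7977427-7977726 for Apob and chr9:46228380-46228679 for Apoa1, all on the plus strand of GRCm38.p6. For Alb and Apoa1 that start is the first base of the gene, whereas for Apob it lies 48 bases downstream, at 7977677, and positions are counted from it.
Alb: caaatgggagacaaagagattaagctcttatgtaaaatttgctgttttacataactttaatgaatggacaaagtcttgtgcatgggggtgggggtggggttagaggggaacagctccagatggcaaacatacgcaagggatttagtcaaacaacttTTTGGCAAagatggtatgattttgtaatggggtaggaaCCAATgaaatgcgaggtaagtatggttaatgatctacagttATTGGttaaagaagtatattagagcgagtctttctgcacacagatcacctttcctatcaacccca
Apob: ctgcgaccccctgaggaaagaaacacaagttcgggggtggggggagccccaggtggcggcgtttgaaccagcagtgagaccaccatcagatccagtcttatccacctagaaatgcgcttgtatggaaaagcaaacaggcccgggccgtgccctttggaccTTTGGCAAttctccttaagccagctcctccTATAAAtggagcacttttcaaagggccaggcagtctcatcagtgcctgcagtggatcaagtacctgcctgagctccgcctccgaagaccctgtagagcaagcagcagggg
Apoa1: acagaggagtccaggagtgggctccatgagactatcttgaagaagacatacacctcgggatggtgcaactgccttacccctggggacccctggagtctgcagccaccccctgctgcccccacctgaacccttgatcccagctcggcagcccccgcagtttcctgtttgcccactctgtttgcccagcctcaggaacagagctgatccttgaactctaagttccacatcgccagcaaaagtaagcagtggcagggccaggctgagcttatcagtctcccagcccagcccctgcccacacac
The Alb window holds the C/EBP core at -94 from the start on the opposite strand, and the CCAAT box at -56 and, on the opposite strand, at -15. The Apob window holds the C/EBP core at -90 on the opposite strand, in the same 8 letters as in Alb, and the TATA box at -60. Among 32841 RefSeq promoter windows of the same length, 10.8% hold the C/EBP core, 13.6% the TATA box, 37.4% the CCAAT box, 16.3% the nuclear receptor motif, 35.7% the GC box, 0.475% the HNF4 element and 1.25% its shorter form. The windows of Alb, Apob and Apoa1 hold 3, 9 and 4 CpG dinucleotides, against a median of 7 over all windows. Promoter windows were matched for 7 of the 10 genes, the others being Ttr, Trf and Apoc1. A match is a description of letters and not a binding site.

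Apob, on chromosome 12 at 7977629 to 8016839, fell with FK228 and was lowest with FK228+YF. Control libraries held 11749, 11151 and 10359 counts, FK228 libraries 5021, 5909 and 6409, YF libraries 9821, 10480 and 10314, and FK228+YF libraries 3378, 3611 and 3637. In CPM the FK228+YF libraries lay below all others, the FK228 libraries came next, and the YF libraries lay just below the control libraries. The means were 429 ± 26.2 CPM in control, 236 ± 30.1 in FK228, 393 ± 5.75 in YF and 146 ± 5.9 in FK228+YF cells, so that FK228 cells held 55.1% and FK228+YF cells 34.1% of the control level. Apob fell by 0.86 ± 0.07 on the log2 scale with FK228 (adjusted p = 1.52e-09) and by 1.55 ± 0.07 with FK228+YF (adjusted p = 7.062e-14). With YF alone the difference was -0.13 ± 0.07 (adjusted p = 0.197), which did not pass the test although the CPM values of the groups do not overlap.

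The effect of FK228 on Apob was larger in the presence of the YF mutants. It was -0.86 without YF and -1.43 with YF, and the difference between these effects was -0.57 ± 0.10 on the log2 scale (adjusted p = 0.0004199, edgeR's interaction term). Over all tested genes the interaction term was called for 26.5%, 11.1% higher and 15.3% lower. The interaction of the other 4 tested genes did not pass: 0.29 for Ttr (adjusted p = 0.78), -0.22 for Trf (adjusted p = 0.117), 0.18 for Apoe and 1.14 ± 0.52 for Apoa1 (adjusted p = 0.1141). The error for Apoa1 leaves room for a large difference.

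Apoa1, on chromosome 9 at 46228630 to 46230469, had its lowest means with FK228 and FK228+YF. It had 31, 35 and 45 counts in control, 9, 10 and 8 with FK228, 12, 22 and 17 with YF, and 12, 7 and 8 with FK228+YF. Every control library lay above every treated library, and the 3 FK228 libraries lay below the 3 YF libraries in CPM, whereas FK228+YF overlapped both. Mean CPM was 1.43 ± 0.284 in control, 0.367 ± 0.0369 in FK228, 0.653 ± 0.182 in YF and 0.373 ± 0.113 in FK228+YF cells. The log2 differences from control were -1.95 ± 0.34 with FK228 (adjusted p = 2.996e-05), -1.12 ± 0.30 with YF (adjusted p = 0.006711) and -1.93 ± 0.34 with FK228+YF. Since it passed the filter through the control and YF libraries, the counts themselves describe it better than these p-values.

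Apoe, on chromosome 7 at 19696244 to 19701310, was the only one of the 5 that rose with FK228. Its counts were 84, 83 and 102 in control, 124, 127 and 103 with FK228, 101, 100 and 81 with YF, and 157, 146 and 112 with FK228+YF. In CPM all libraries with FK228 lay above all control and YF libraries, and YF overlapped control. Mean CPM was 3.47 ± 0.428 in control, 4.82 ± 0.487 in FK228, 3.63 ± 0.48 in YF and 5.71 ± 0.936 in FK228+YF cells, which is 139%, 105% and 165% of the control level. Apoe rose by 0.47 ± 0.16 on the log2 scale with FK228 (adjusted p = 0.0137) and by 0.72 ± 0.16 with FK228+YF (adjusted p = 0.0003562). With YF the difference was 0.06 (adjusted p = 0.813). The call with FK228 was lost without control replicate 2, at 0.41 with an adjusted p of 0.0514 in edgeR's quasi-likelihood test.

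The 3 remaining apolipoprotein genes had too few counts for the test. Apoc1, on chromosome 7 at 19689480 to 19692659, encodes a small apolipoprotein that inhibits lipoprotein uptake and had 0 to 10 counts per library. Apom, on chromosome 17 at 35128997 to 35131801, encodes the carrier of sphingosine-1-phosphate in high-density lipoprotein and had 1 to 11 counts per library. Its ratio of YF to control, 8 counts against 20, was 0.398 with an exact 95% interval of 0.152 to 0.944 that covers counting error only, and in the fit with no filter the difference did not pass (-1.30 on the log2 scale, adjusted p = 0.243, edgeR's quasi-likelihood test), while its other 2 ratios to control had intervals that include 1. Apoh, on chromosome 11 at 108395297 to 108414396, encodes beta-2-glycoprotein I, a phospholipid-binding protein, and had 0 to 5 counts per library. For Apoc1 and Apoh every ratio to control had an interval that includes 1, which at this depth shows neither a change nor its absence.

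**Figure D2:**
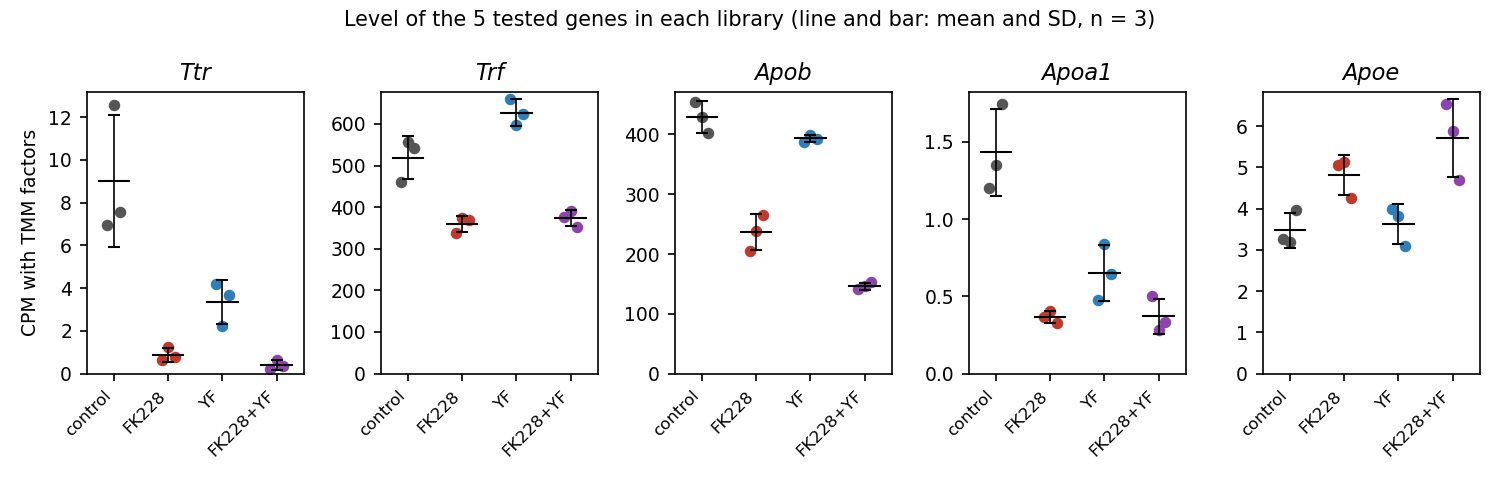
CPM in each library for the 5 tested genes, 1 panel per gene with its own axis, 3 points per group with their mean and SD. Ttr, Trf, Apob and Apoa1 are lower in FK228 and FK228+YF than in control libraries, Apoe is higher there, and Trf is highest with YF.

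The 3 comparisons among treated groups place the genes against each other's background. FK228+YF against YF, the effect of FK228 in cells with the YF mutants, lowered 3 of the 5 genes and raised 1, against 70.6% of all tested genes called (34.7% higher and 35.9% lower). The log2 differences were -3.06 for Ttr, -0.75 for Trf, -1.43 for Apob and 0.66 for Apoe (adjusted p = 0.0009645), and Apoa1 at -0.81 did not pass (adjusted p = 0.06005). In edgeR's quasi-likelihood test Apoa1 passed there without YF replicate 1 (-0.99, adjusted p = 0.03584) and without FK228+YF replicate 1 (-1.07, adjusted p = 0.03693). FK228+YF against FK228 lowered 1 gene, Apob, by 0.69 ± 0.07 (adjusted p = 1.549e-07), against 52.9% of all genes called (26.6% higher and 26.3% lower). Ttr, with the larger difference, was at -1.14 ± 0.53 there (adjusted p = 0.082). It passed with DESeq2 (-1.16, adjusted p = 0.01205), with only the groups compared (-1.15, adjusted p = 0.03118) and without FK228+YF replicate 2 (-1.70, adjusted p = 0.0407). FK228 against YF gave 3 genes lower (Ttr at -1.92, Trf at -0.80 and Apob at -0.74) and Apoe higher at 0.41 (adjusted p = 0.033), against 61.2% of all genes called (27.8% higher and 33.3% lower). Apoa1 at -0.82 did not pass (adjusted p = 0.06206, edgeR's quasi-likelihood test), but did without YF replicate 1 (-1.01, adjusted p = 0.03904). That call of Apoe was lost without FK228 replicate 1 (0.40, adjusted p = 0.0699), without FK228 replicate 2 (0.38, adjusted p = 0.0847) and without YF replicate 3 (0.30, adjusted p = 0.16).

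**Figure D3:**
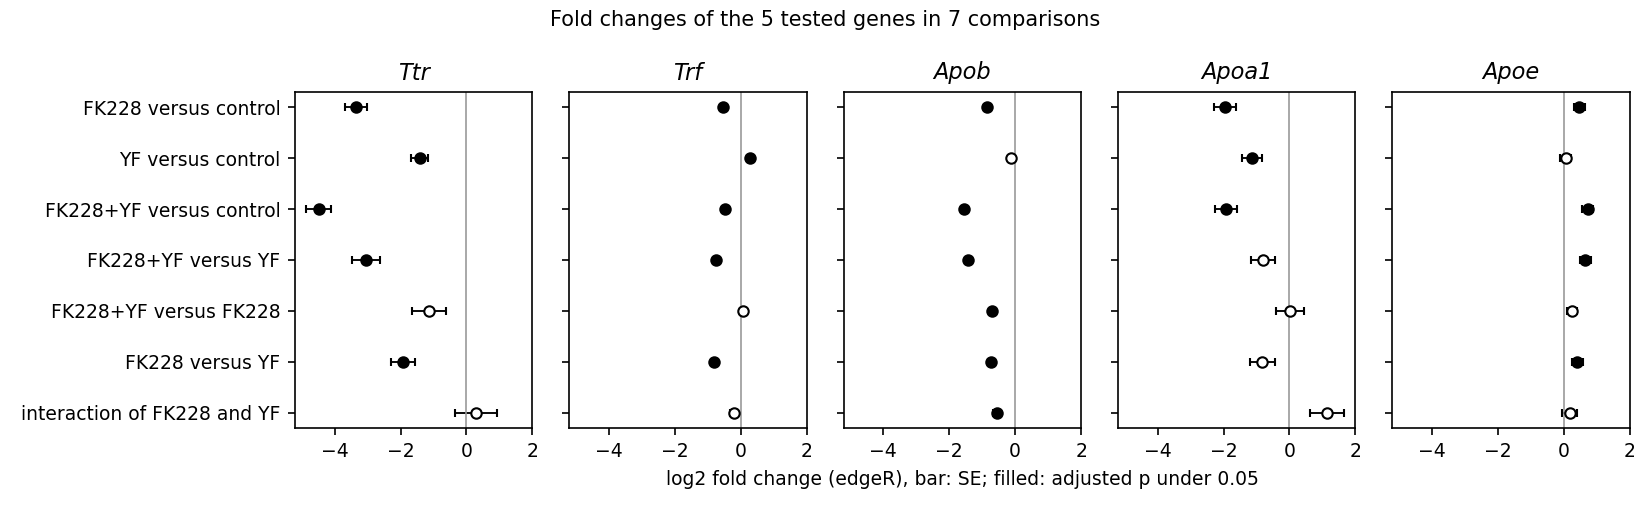
Log2 fold change of the 5 tested genes in edgeR's quasi-likelihood fit, with standard errors, for the comparisons with control and for those among treated groups and the interaction; filled points passed an adjusted p of 0.05. Ttr has the largest falls, down to -4.48 with FK228+YF, and of the interactions that of Apob is filled.

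Several of the 10 genes lie in small clusters with related genes, whose values are given in order of position. Apoe and Apoc1, 3585 bp apart on chromosome 7, are followed by Apoc4, 14784 bp from Apoe, and by Apoc2, the activator of lipoprotein lipase, at 18303 bp. Apoc2 averaged 46.9 ± 5.5 CPM in control, 9.37 in FK228, 35.7 in YF and 4.71 in FK228+YF cells. It fell by 2.32 ± 0.19 on the log2 scale with FK228 and by 3.32 ± 0.21 with FK228+YF, and was at -0.40 with YF (adjusted p = 0.093). Without YF replicate 1 that YF difference was -0.56 and passed (adjusted p = 0.0195). Apoc4 fell by 3.30 ± 0.38 and 3.53 ± 0.39 in the same comparisons and was at -0.02 with YF. It was at or above 0.393 CPM in all control and YF libraries and in 1 library each of FK228 and FK228+YF, so it entered the test through the groups where it was high. Apoe and Apoc2, less than 20 kb apart, thus moved in opposite directions with FK228.

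Next to Apoa1, at 2581 bp, lies Apoc3, an inhibitor of lipoprotein lipase. Apoc3 had 17 counts in control, 0 in FK228, 7 in YF and 0 in FK228+YF cells. The exact 95% interval of its ratio to control ran from 0 to 0.256 with FK228 and from 0 to 0.259 with FK228+YF. These intervals cover counting error only. The control level was 5.37 times a floor of 3 counts over the FK228 group and 5.31 times that floor over the FK228+YF group. Of the 17 control counts 12 were in replicate 2, and without it these ratios to the floor were 2.37 and 2.35. Apoa5, further on, had 9 counts over all 12 libraries. Next to Alb lie Afp, the fetal counterpart of albumin, at 14112 bp, and Afm, a vitamin E carrier, at 42347 bp. Afp averaged 7.34 CPM in control, 6.22 in FK228, 5.94 in YF and 6.49 in FK228+YF cells and passed in none of the 3 comparisons with control. Without FK228 replicate 1 its difference with FK228 was -0.39 and passed (adjusted p = 0.0144). Afm fell by 0.57 ± 0.13 with FK228, by 0.90 ± 0.14 with YF and by 1.93 ± 0.15 with FK228+YF. Fetub, which encodes fetuin-B and lies 18931 bp from Ahsg, had 3 counts in control, 88 in FK228, 33 in YF and 196 in FK228+YF cells. Its ratios to control were 31 (exact 95% interval 10.3 to 153), 11 (3.44 to 55.8) and 69.7 (23.5 to 341), and it entered the test through the treated groups.

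**Figure D4:**
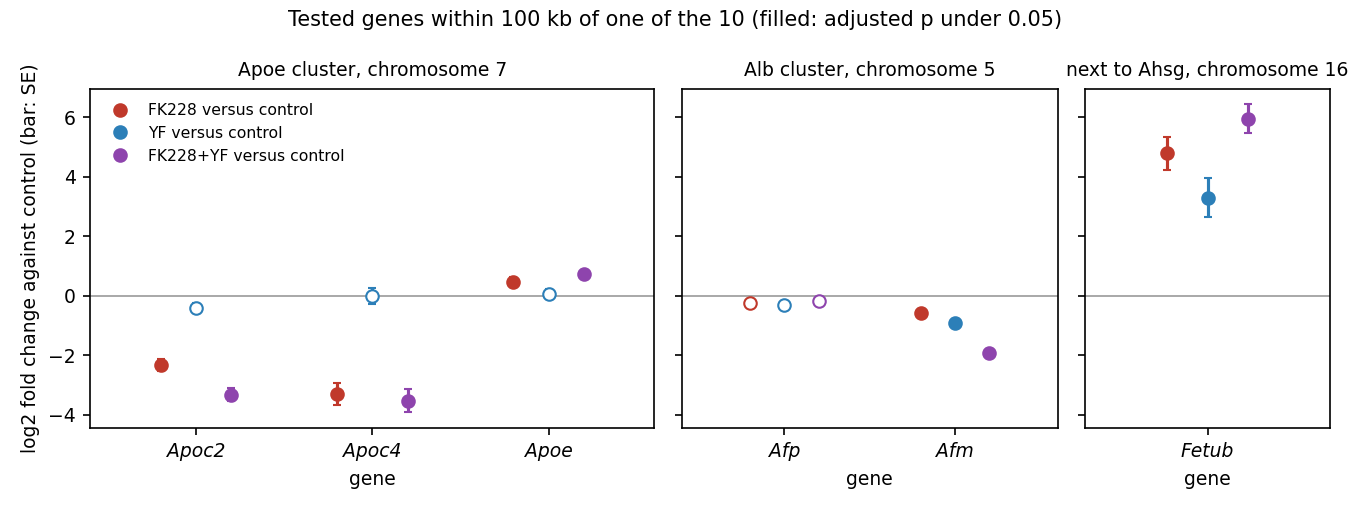
Log2 fold change against control, with standard errors, of the tested genes near Apoe (drawn with Apoe), Alb and Ahsg, with FK228, YF and FK228+YF by colour; filled points passed an adjusted p of 0.05. With FK228 and FK228+YF, Apoc2 and Apoc4 lie well below 0 while Apoe lies above it, all 3 points of Afp are open, and Fetub, with 3 counts in control, has the highest points.

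Of the 6 tested genes among 9 other apolipoprotein genes in the table, 2 were higher and 4 lower with FK228 (median log2 change -1.20), 2 higher and 0 lower with YF (0.12), and 2 higher and 4 lower with FK228+YF (-1.43). Over all tested genes the shares called higher and lower were 33.2% and 35.5% with FK228, 18% and 14.6% with YF, and 38.8% and 38.6% with FK228+YF, and the counts of this and the following lists stand beside these shares with no test of the list. Clu, which encodes the chaperone apolipoprotein J, rose from 1257 ± 131 CPM in control to 4679 ± 79.6 in FK228, 1641 ± 149 in YF and 6020 ± 122 in FK228+YF cells. These are log2 changes of 1.90, 0.39 and 2.26. The other gene that rose was Apod, from 1 count in control to 26, 13 and 93 counts, and it is named here after its values were seen. It was at or above 0.393 CPM in 0 control, 1 FK228, 0 YF and 3 FK228+YF libraries, so it was tested through the group where it was highest. The 4 that fell with FK228 were Apoc2, Apoc4, Apon, at -1.64, and Apof, at -0.76. With YF the count of higher genes was 1 without control replicate 2, and that of lower genes was 1 without YF replicate 1.

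The next list holds genes of lipoprotein assembly and secretion, the route that loads lipid onto apolipoprotein B. Of 11 tested, 7 were higher and 3 lower with FK228 (33.2% and 35.5% of all tested genes, list median 0.31), 3 higher and 1 lower with YF (0.07), and 8 higher and 3 lower with FK228+YF (0.64). Mttp, the transfer protein that lipidates apolipoprotein B, rose from 4.6 ± 0.928 CPM in control to 9.65 ± 0.292 in FK228 and 7.16 ± 0.194 in FK228+YF cells. Apobec1, which edits the Apob transcript, rose from 1.32 CPM to 3.92 with FK228, 3.36 with YF and 4.49 with FK228+YF. Sort1, a sorting receptor that binds apolipoprotein B, rose by 0.64, 0.80 and 1.70 on the log2 scale with FK228, YF and FK228+YF. Cideb, which helps to enlarge very-low-density lipoprotein, fell by 0.86, 0.82 and 2.07. Among the genes of the list with the highest mean CPM, P4hb, a subunit of the Mttp complex, was at 0.48, 0.01 and 0.46, Surf4, a cargo receptor, at -0.33, 0.07 and -0.52, Sar1a at 0.31, 0.05 and 0.64 and Sar1b at 0.30, 0.19 and 0.91. The YF difference of Sar1b passed (adjusted p = 0.0114) but not without control replicate 2 or 3, and those of P4hb, Surf4 and Sar1a did not pass. Counts of Apob transcript here do not separate edited from unedited forms.

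Among 12 tested genes of lipoprotein remodelling and lipid transfer, 4 were higher and 5 lower with FK228 (33.2% and 35.5% of all tested genes), 3 higher and 1 lower with YF (18% and 14.6%), and 3 higher and 5 lower with FK228+YF, with medians of -0.23, 0.25 and -0.14. Without FK228 replicate 3, 3 were lower with FK228. With any of control replicates 2 and 3 and YF replicates 1 and 2 left out, 0 were lower with YF. Lpl, the lipase that hydrolyses triglyceride in lipoproteins, rose from 1.55 ± 0.424 CPM to 7.64 ± 0.378 with FK228, 4.65 ± 0.273 with YF and 8.97 ± 0.11 with FK228+YF. Abca7, another lipid exporter, rose by 0.84, 0.31 and 1.11 on the log2 scale, and Lmf1, which folds lipases, fell by 0.64, 0.27 and 1.07. The fall of Lmf1 with YF was the call that did not hold without those libraries. Pon2, a paraoxonase, was at -0.59, 0.17 and -0.71, and Angptl4, an inhibitor of Lpl, at -0.17, 0.09 and -1.02. For these 2 genes the YF difference did not pass, nor did that of Angptl4 with FK228 (adjusted p = 0.154). Without control replicate 1 the YF difference of Pon2 passed, at 0.26, as did the FK228 difference of Angptl4, at -0.24. Abca1, the exporter that loads lipid onto apolipoprotein A-I, rose by 0.95, 1.67 and 2.66 on the log2 scale while Apoa1 fell. The Abca1 call with FK228 was lost without FK228 replicate 3, at 0.63 with an adjusted p of 0.0743 in edgeR's quasi-likelihood test.

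Receptors that take up these proteins and their regulators gave 8 higher and 5 lower of 16 tested with FK228 (33.2% and 35.5% of all tested genes), 7 and 0 with YF (18% and 14.6%), and 9 and 5 with FK228+YF, with medians of 0.27, 0.18 and 0.38. Without control replicate 1, 3 were lower with YF. The higher calls included Asgr1, at or above 0.393 CPM in 0 control libraries, and S1pr1, with 0 counts in control cells. Both were tested through treated groups. With a filter of 5 CPM in 3 libraries, 4 were higher with FK228, 4 with YF and 5 with FK228+YF. Lrp1, a receptor for apolipoprotein E, rose from 13.6 ± 0.845 CPM to 48.0 ± 6.71, 27.9 ± 3.63 and 45.01 ± 4.26 with FK228, YF and FK228+YF. Scarb1, the receptor for high-density lipoprotein, rose by 0.28, 0.40 and 0.53 on the log2 scale. Vldlr was at -0.51, -0.15 and -0.96, and Sdc1, a heparan sulfate proteoglycan that binds remnants, at -0.29, -0.12 and -0.90, and for both genes the YF difference did not pass. Without control replicate 1 that of Vldlr passed, at -0.20. Lrpap1, a chaperone of Lrp1, was at -0.31, 0.19 and 0.23 and passed in all 3, but its YF call was lost without control replicate 1 or 3 or YF replicate 1 or 3. Fcgrt, the receptor that spares albumin from degradation, rose by 0.85 with FK228 and 0.72 with FK228+YF, and was at 0.41 with YF (adjusted p = 0.0974), which passed without control replicate 2, at 0.65. Tfr2, the transferrin receptor by which hepatocytes sense iron, fell by 1.27 ± 0.11 on the log2 scale with FK228 and by 1.75 ± 0.11 with FK228+YF, alongside Trf. With YF it was at -0.20 (adjusted p = 0.122), and passed without control replicate 1, at -0.29 (adjusted p = 0.0285).

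Among the other plasma protein genes, 22 of 25 could be tested. With FK228 6 were higher and 12 lower (33.2% and 35.5% of all tested genes, list median -0.47), with YF 12 were higher and 4 lower (18% and 14.6%, median 0.51), and with FK228+YF 7 were higher and 12 lower (-0.69). The higher genes included Fetub, which reached 0.393 CPM in 0 control libraries. The lower genes with FK228 and FK228+YF included Hp, which reached it in 0 FK228 and 0 FK228+YF libraries. With a filter of 5 CPM in 3 libraries, 2 were higher with FK228, 6 with YF and 3 with FK228+YF. The interaction term was called lower for 14 and higher for 0 of the 22, against 15.3% and 11.1% of all tested genes. Rbp4, the retinol carrier that travels with transthyretin, averaged 339 ± 23.3 CPM in control, 256 ± 14.0 in FK228, 439 ± 17.5 in YF and 276 ± 18.1 in FK228+YF cells. Cp, the copper-carrying ferroxidase ceruloplasmin that loads iron onto transferrin, fell from 873 ± 14.2 CPM to 457 ± 16.5 with FK228 and 264 ± 15.3 with FK228+YF, and was at 852 ± 36.4 with YF. Selenop, the selenium carrier, fell by 0.81, 0.40 and 1.05 on the log2 scale. Gc, the vitamin D-binding protein, fell by 0.72 with FK228 and 1.31 with FK228+YF and was 0.22 higher with YF, a call lost without control replicate 1 or 3 or YF replicate 1 or 3 and with the replicate block (adjusted p = 0.0533). Hp, the haemoglobin-binding haptoglobin, had 188 counts in control, 4 in FK228, 326 in YF and 11 in FK228+YF cells, and reached 0.393 CPM only in control and YF libraries. Igfals, which stabilises insulin-like growth factors in plasma, fell by 2.82, 0.87 and 3.26 on the log2 scale. It had 270 counts in control, 36 in FK228, 148 in YF and 26 in FK228+YF cells. It reached 0.393 CPM in 3 control, 2 FK228, 3 YF and 1 FK228+YF libraries, so it was tested mainly through the groups where it was high. Orm2, an acute-phase protein, rose by 1.72, 1.28 and 0.78, but shares sequence with Orm1 and its counts are uncertain for that reason. The rise of Hp with YF was 0.79 on the log2 scale (adjusted p = 0.0341, edgeR's quasi-likelihood test). It was lost without control replicate 1 or 3 or YF replicate 1 or 3, with adjusted p-values from 0.068 to 0.186. It was also lost with limma-voom (0.053) and with the replicate block (0.0591).

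Of 19 tested hepatocyte transcription factor genes, 2 were higher and 8 lower with FK228 (33.2% and 35.5% of all tested genes), 1 higher and 10 lower with YF (18% and 14.6%), and 2 higher and 14 lower with FK228+YF, with medians of -0.15, -0.24 and -0.68. With the RLE library scaling 5 were higher and 8 lower with FK228. The count lower with YF was 4 without control replicate 2, 6 without control replicate 3 and 5 without YF replicate 2, and that higher with YF was 2 without control replicate 1 or YF replicate 2. Hnf4a, a main regulator of apolipoprotein genes, fell from 177 ± 7.5 CPM in control to 50.6 ± 3.31 in FK228, 121 ± 5.8 in YF and 28.7 ± 1.24 in FK228+YF cells. Creb3l3, a regulator of triglyceride metabolism in liver, rose from 14 counts in control to 466, 141 and 536 counts, and reached 0.393 CPM only in treated libraries. Ppara, a nuclear receptor for fatty acids, rose by 1.10 with FK228 and 1.34 with FK228+YF and was at 0.05 with YF. Onecut2 was at -0.07, -0.33 and -0.40, of which the first did not pass. Cebpb passed in none of the 3 comparisons, at 0.31, 0.16 and 0.22, but with FK228 it passed without control replicate 3 (0.42) or FK228 replicate 3 (0.42), with RLE scaling and DESeq2 (0.34 in each) and with the 5 CPM filter (0.34), and with FK228+YF it passed with only the groups compared (0.23). No test links these factors to the 10 genes here.

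**Figure D5:**
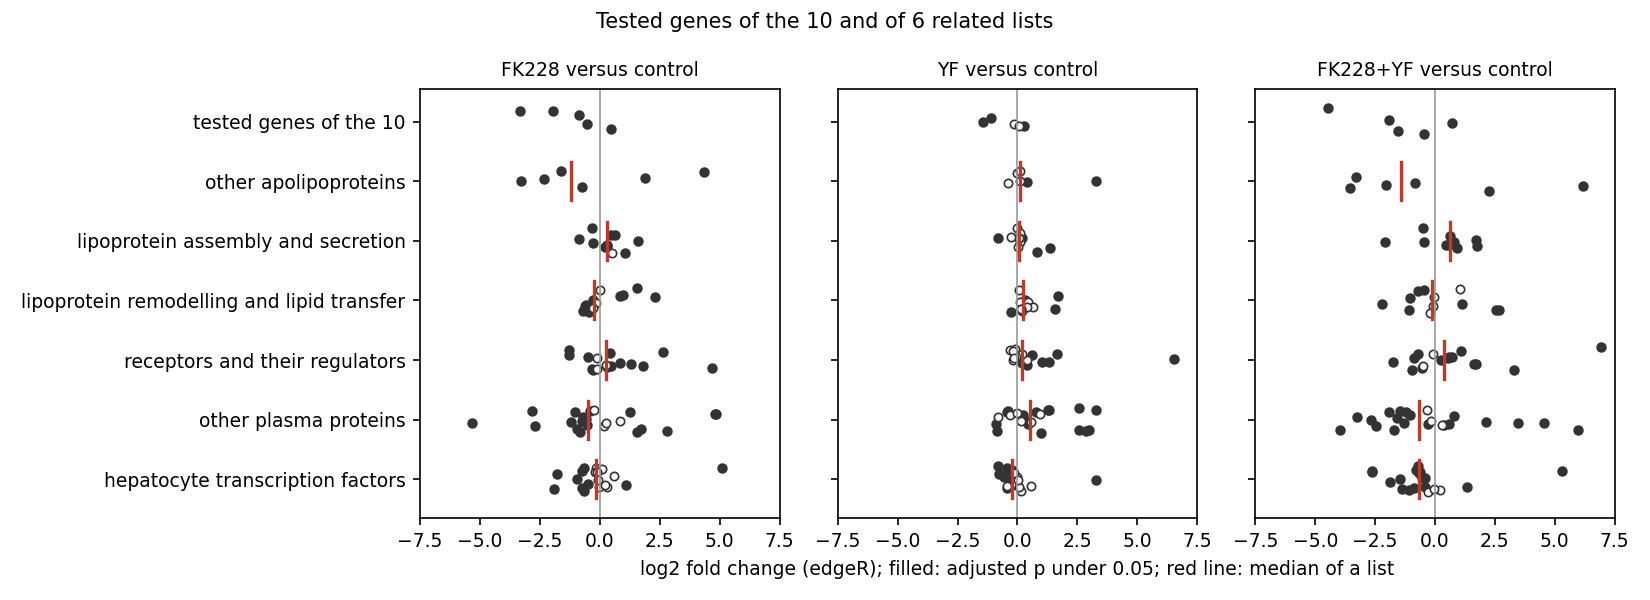
Log2 fold change against control of the 5 tested genes of the 10 (top row) and of every tested gene in 6 related lists, with 1 panel for each of FK228, YF and FK228+YF. Filled points passed an adjusted p of 0.05, the red bar is the median of a list, and height within a row has no meaning. The other plasma proteins have a median of -0.47 with FK228, 0.51 with YF and -0.69 with FK228+YF.

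Likeness over the 12 libraries, as Pearson's r of log2 CPM against 10447 genes with a mean of at least 5 CPM, is a description, since 4 groups underlie the 12 points and all genes share the same libraries. Ttr was most like Gas2 (r = 0.986) and Ptgs1 (r = 0.985), and Trf most like Ak1 (r = 0.982) and Ackr3 (r = 0.9705). Apob was most like Tcf12 and Setd2 (r = 0.995 for each), Apoe most like Mvb12a (r = 0.953) and Mtg2 (r = 0.95), and Apoa1 most like Snx17 (r = 0.955) and Zbtb6 (r = 0.953). Such values were common: 1915 genes exceeded r = 0.9 with Apob, 1389 with Ttr, 294 with Trf, 138 with Apoa1 and 50 with Apoe. Among the 5 genes themselves, r was 0.927 between Ttr and Apob, 0.802 between Trf and Apob, and -0.905 between Apob and Apoe.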

How the data were processed

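Per the labels, TRIzol was used to isolate total RNA for the 12 AML12 libraries, which a BGISEQ instrument read from both ends. RSEM 1.2.12 is listed in the submitters' processing notes beside DESeq2 1.4.5, HISAT2 2.0.4, Bowtie2 2.2.5 and GRCm38.p6, without their roles. The authors deposited an expected count per gene and library, of which 16.6% are not whole numbers, with TPM and FPKM values. Their deposited scaled counts (a signal, by unit) and group averages were not used, and 0 columns of per-sample values lacked a sample.

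Groups were taken from the sample titles. Counts were rounded and tested with edgeR 4.0.16 (limma 3.58.1, R 4.3.3): filterByExpr, TMM factors (0.94 to 1.04), quasi-likelihood test with 1 term per group over all 12 libraries, Benjamini-Hochberg adjustment over 13346 genes, threshold 0.05, 7 contrasts. CPM use the TMM factors. Ratios of summed counts have exact 95% binomial intervals, which cover counting error only. Alternatives were DESeq2 1.42.0, limma-voom, RLE scaling, no low-count filter or one at 5 CPM in 3 libraries, only the groups compared, a replicate block and each of the 12 libraries left out in turn.

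The 10 genes and the gene lists were chosen with earlier results of these data known. Named from each list were the 4 genes with the highest mean CPM, the 4 called genes of at least 1 CPM with the largest change with FK228, and neighbours of the 10, except a few genes that are not reported here. The 2 genes most like each tested gene were named. Promoter windows came from RefSeq (GRCm38.p6) and figures from matplotlib 3.10.9.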

Additional observations from a re-analysis of the deposited data

Results flagged for a closer look

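The effect of FK228 on Apob differed between cells with and without the YF mutants by -0.565 on the log2 scale in edgeR's interaction term (adjusted p = 0.0004199). Mean Apob CPM went from 429 ± 26.2 to 236 ± 30.1 without YF and from 393 ± 5.75 to 146 ± 5.9 with YF (SD, n = 3 each). Over the alternative settings and left-out libraries the difference ran from -0.67 to -0.48, and its adjusted p stayed at or below 0.002016. The interaction term passed for 26.5% of all tested genes, so such a difference was common in these libraries. Its cause was not tested.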

How the results depend on the processing

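The calls of Ttr, Trf and Apob against control, and of Apoa1 and Apoe with FK228+YF, held in every alternative that tested them. For Apoa1 this adds no support, since it passed the main filter only because of groups in which it was high. With the filter of 5 CPM in 3 libraries, Ttr was tested only through the control libraries, so that alternative adds no support for its calls. A filter of 5 CPM leaves Apoe and Apoa1 untested, so that the members called higher became 0 with FK228, with FK228+YF, in FK228+YF against YF and in FK228 against YF, and those lower with YF became 1. With no filter, 2 were higher with YF, the second being Alb, and 4419 of 18989 tested genes were called in either direction. In FK228+YF against FK228, 2 were lower with DESeq2 (Ttr at -1.16, adjusted p = 0.01205) and with only the groups compared (-1.15, adjusted p = 0.03118). Those fits called 6949 of 13346 and 7174 of 13020 tested genes there, in either direction. With 1 library left out, the count higher ran from 0 to 1 with FK228 and in FK228 against YF, and the count lower from 1 to 2 in FK228+YF against FK228, from 3 to 4 in FK228+YF against YF and from 3 to 4 in FK228 against YF. Calls over all genes were common in these fits. Without control replicate 2 they were 8872 of 13557 with FK228. Without YF replicate 1 they were 9043 of 13569 in FK228+YF against YF and 7675 of 13569 in FK228 against YF. Without FK228+YF replicate 2 they were 6379 of 13512 in FK228+YF against FK228. A group left with 2 libraries shares the spread of the others.

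Values that changed sign did not pass the test on either side. With 1 library left out, Ttr in the interaction ran from -0.27 to 0.62, with -0.03 without control replicate 2. In FK228+YF against FK228, Trf ran from -0.01134 to 0.09163 and Apoa1 from -0.25 to 0.17, with -0.00217 and -0.05405 without FK228 replicates 1 and 3. Apoa1 was there at -0.01459 with no filter and -0.01608 with limma-voom. With YF, Apoe ran from -0.008453 to 0.17, Apoc4 from -0.27 to 0.22 (0.08255 without control replicate 2), P4hb from -0.04426 to 0.04795 (-0.004013 without YF replicate 1), Ppara from -0.09537 to 0.25 (-0.02799 without YF replicate 1) and Cps1 from -0.81 to 0.67 (0.00307 without YF replicate 2, 0.24 with limma-voom). With FK228, Onecut2 ran from -0.15 to 0.01612. The causes were not tested.

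Libraries of the same number did not deviate together: over 18 such pairs in the 6 comparisons of groups, the correlation of deviations from the group means ran from -0.215 to 0.0887. At most 3 of 6 libraries in a comparison correlated best with their own number. The fit with a replicate block called 9015 genes with FK228 against 9181 without the block, and 4056 against 4357 with YF, and changed no call of the 5 tested genes, while the YF calls of Gc and Hp were lost with it. The 5 untested genes, at 0 to 11 counts per library, allow only large differences to be seen.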

Other observations

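The hepatocyte markers did not move in 1 direction. Ass1 and Cps1 encode urea cycle enzymes, Hal the enzyme that breaks down histidine, and Asgr1 a subunit of the asialoglycoprotein receptor, which clears plasma glycoproteins. Ass1 rose by 1.72 ± 0.11 on the log2 scale with FK228, 2.15 ± 0.11 with YF and 1.52 ± 0.11 with FK228+YF. Hal had 19 counts in control, 114 in FK228, 82 in YF and 351 in FK228+YF cells, Asgr1 12, 72, 39 and 112, and Cps1 6, 62, 5 and 63. These 3 genes were under 0.393 CPM in all control libraries and entered the test through treated groups, so no test is given for them. The 2 most abundant markers of the list are keratin genes of simple epithelia. Krt8 fell by 0.36 ± 0.08, 0.27 ± 0.08 and 1.09 ± 0.08, and its YF call was lost without control replicate 3. Krt18 was 0.29 ± 0.08 higher with FK228 and 0.28 ± 0.08 lower with FK228+YF, and stood at -0.19 ± 0.08 with YF (adjusted p = 0.0861), which passed with no filter, with DESeq2 and with only the groups compared. The calls are from edgeR's quasi-likelihood test, and these genes were named after their values were seen.

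Of the bile-duct markers, Krt19 fell by 1.81 ± 0.09, 1.09 ± 0.08 and 2.51 ± 0.09 on the log2 scale with FK228, YF and FK228+YF, and Krt7 by 0.27 ± 0.09, 0.59 ± 0.09 and 1.49 ± 0.10, its FK228 call being lost without control replicate 3 or FK228 replicate 3. Sox9 fell by 0.65 ± 0.12 with FK228 and 0.84 ± 0.12 with FK228+YF, and by 0.31 ± 0.12 with YF, a call lost without control replicate 2 or 3 or YF replicate 2 or 3, with the 5 CPM filter, with only the groups compared and with the replicate block. Spp1, the most abundant of the list, averaged 4179 ± 128 CPM in control, 5348 ± 203 in FK228, 5097 ± 92.9 in YF and 4645 ± 437 in FK228+YF cells. It was 0.36 ± 0.07 higher with FK228 and 0.29 ± 0.07 higher with YF, and at 0.15 ± 0.07 with FK228+YF (adjusted p = 0.066), which passed with RLE scaling, the 5 CPM filter, DESeq2, only the groups compared and without FK228+YF replicate 2. Of the macrophage markers, Cd14 fell by 2.86 ± 0.13, 0.48 ± 0.11 and 3.89 ± 0.14, whereas Cd68, which encodes a lysosomal protein, rose by 3.17 ± 0.14, 1.43 ± 0.16 and 4.30 ± 0.13. Tfrc, the ubiquitous transferrin receptor, passed in none of the 3 comparisons with control, at -0.11 (adjusted p = 0.157), -0.18 (adjusted p = 0.0549) and -0.08 (adjusted p = 0.325), although with YF it passed under RLE scaling, with no filter, with DESeq2 and without control replicate 1, and with FK228 without control replicate 1.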
